A study of Mus musculus with 14 samples.

Results

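The response of salivary cells sorted as Tert- to radiation was described across all expressed genes in 7 of the 14 RNA libraries of the study, 4 from glands treated with RT (15 Gy of radiation) and 3 from glands with no RT. The libraries were taken by their titles, which name the population, the treatment and a replicate. All mice, in every group, were adult and carried TertCreERT2/+ and Rosa26LSL-tdTomato/+, so that a tamoxifen-activated Cre recombinase was expressed from 1 Tert allele and marked Tert expressing cells and their descendants with tdTomato. Tert- cells, also called TertLow, were live submandibular gland cells sorted as EpCAM positive and tdTomato negative, and the tdTomato positive cells (Tert+, 3 libraries without RT and 4 after RT) served for comparison. The age in weeks, the time between RT and sorting and the tamoxifen schedule were not given in the sources used here. The labels do not say that the replicates came from separate mice, so p-values measure the spread between these libraries, which may be partly technical. The edgeR tests took that spread from all 14 libraries, Tert+ included, and treated them as independent. In all 14 libraries a further label, the cell type field, named the opposite population, while 14 of 14 descriptions matched the titles, which were followed here. Replicates named without a population below are Tert- libraries.

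Radiation breaks DNA, and the break-sensing kinases stabilise the transcription factor p53, which induces cell cycle inhibitors, feedback regulators and death genes. Cells with p53 activity stop before DNA replication, and the transcripts of the replication helicase and of mitosis fall as cells leave the cycle. The submandibular gland holds secretory acini, ducts with kallikrein-rich granules, and resident leukocytes, and B cells are among the most radiation-sensitive of these. Germinal centre B cells, which divide rapidly and mutate their antibody genes, are known for early loss after irradiation of lymphoid tissue.

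Total counts were 9687159 to 13454637 without RT and 5520412 to 10953634 after RT, lower on average after RT (exact permutation test, two-sided, p = 0.0857, where the smallest possible p of 3 against 4 libraries is 0.0286). Library numbers ran from 2 to 8 without RT and from 10 to 16 after RT, so library order and treatment cannot be told apart. The salivary epithelial label was weakly matched by its markers. Its markers were compared in counts per 1e6 on unscaled library totals, per kilobase of exon, while CPM below are counts per 1e6 on scaled totals. The median over the 7 libraries was 23.5 for Epcam, the sorting antigen, and 66.4 for the keratin Krt18, against 1835 for Cd79a of the B cell receptor and 79.3 for the pan-leukocyte gene Ptprc. The kallikrein Klk1 of granular ducts reached 3008 on the same scale. The libraries are therefore described as the sorted Tert- fraction, and no cell type is assumed for a gene. In a principal component analysis PC1 (42.3% of variance) separated the treatments, at -39.56 to -8.75 without RT and 17.9 to 27.9 after RT. Tert- no RT replicate 1 stood apart on PC2 (16.8% of variance) at 38.9, where the other libraries lay between -13.0 and 3.71, and it held the highest summed share of T cell genes, 0.135% of counts.

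RT changed 258 of 15915 tested genes in Tert- cells (1.62%), of which 130 (0.817%) were higher and 128 (0.804%) lower by edgeR's quasi-likelihood test with Benjamini-Hochberg adjusted p under 0.05. At least a 2-fold change was seen in 77 of the higher and 60 of the lower genes. Among the calls 257 showed no overlap between the 4 RT and 3 no RT libraries, a property of 18.9% of all genes tested. Without adjustment 2995 genes had p under 0.05. These counts rested on single libraries. When no RT replicate 1 was left out there were 519 higher and 382 lower genes, 5.40% of the 16692 then tested. List counts given below without that library stand beside this larger share. Without no RT replicates 2 or 3, or RT replicate 3, only 19, 18 and 21 genes were called in all. Without RT replicates 1, 2 or 4 there were 111, 60 and 73. Leaving out 1 Tert+ library gave from 123 (Tert+ no RT replicate 2) to 416 (Tert+ no RT replicate 1) calls. The 7 Tert- libraries alone gave 88. Of the 258 calls 12 held whichever of the 14 libraries was left out, 4 higher (Cdkn1b, Chd7, Iqsec1 and the predicted gene Gm6297) and 8 lower (among them Eno1b, Gsr, Mef2b, Nfam1, Nuggc, Pclaf and the predicted gene Gm4735). The same 12 were the only calls that held in each of the 7 leave-outs of a Tert- library. Every other call was therefore lost when at least 1 Tert- library was left out, and none of the 258 changed direction.

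**Figure D1:**
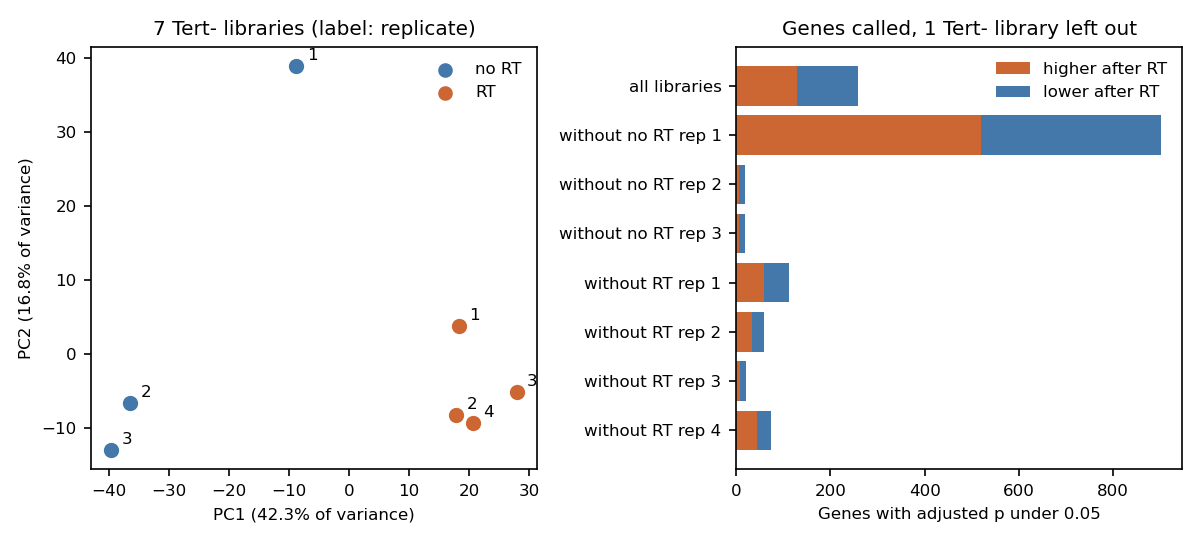
Left, the 7 Tert- libraries on the first and second principal components of log2 expression, coloured by treatment and numbered by replicate; Tert- no RT replicate 1 lies apart on PC2 at 38.9. Right, bars give the number of genes higher and lower after RT with all libraries (130 and 128) and with each Tert- library left out, from 18 genes in all to 519 higher and 382 lower.

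Cdkn1a, which encodes the p53-induced cell cycle inhibitor p21 (chromosome 17, 29090976 to 29100727), was at 105, 17.0 and 20.3 CPM without RT and 73.4, 76.3, 94.8 and 91.6 CPM after RT. The first no RT library exceeded every RT library, while the other two lay below all of them. The log2 fold change was 0.82 (SE 0.459, edgeR adjusted p = 0.359). With no RT replicate 1 left out it was 2.19 (edgeR adjusted p = 9.6e-04). Tert, the reverse transcriptase of telomerase whose reporter defined the sort, was at 1.62, 2.45 and 1.36 CPM without RT and 0, 0, 1.19 and 1.29 CPM after RT, and its log2 fold change of -1.49 (SE 1.52) did not pass (edgeR adjusted p = 0.664). Without RT its mean was 1.81 ± 0.566 CPM (SD, n = 3), against 0.350 ± 0.314 CPM (SD, n = 3) for the Tert+ libraries, an order opposite to the titles. After RT the mean was 0.621 ± 0.718 CPM (SD, n = 4), against 3.58 ± 3.76 CPM (SD, n = 4) for Tert+, the order of the titles. These differences were not tested.

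Among 35 p53 target genes 3 rose (8.57%), none fell and 32 did not pass, beside 0.817% of all genes called higher and 0.804% lower. These background shares stand beside the counts of every list below, and a single call is not read as a result about its list. Of the 35 genes 28 had a positive log2 fold change, and the median was 0.33, beside -0.02 over all genes tested. Phlda3, a p53-induced inhibitor of Akt signalling (chromosome 1, 135766119 to 135769136), was at 1.47, 4.02 and 0.735 CPM without RT and 18.0, 26.2, 13.1 and 16.5 CPM after RT. Every RT library was above every no RT library, and the log2 fold change was 3.14 (SE 0.611, edgeR adjusted p = 0.0282). Ccng1, the p53 target cyclin G, was at 86.7, 94.7 and 109 CPM and rose to 165, 165, 168 and 130 CPM (log2 fold change 0.70, edgeR adjusted p = 0.0257). Sesn1, a sestrin that restrains mTOR signalling, was at 76.5, 72.0 and 89.6 CPM and rose to 112, 154, 147 and 136 CPM (log2 fold change 0.79, edgeR adjusted p = 0.0449). Mdm2, the ubiquitin ligase that degrades p53, was at 124, 74.0 and 67.0 CPM and then 105, 98.6, 100 and 107 CPM and did not pass (edgeR adjusted p = 0.589). The death effector Bax was at 69.1, 66.9 and 60.1 CPM without RT and 95.9, 69.5, 78.3 and 106 CPM after RT, with no overlap and an edgeR adjusted p of 0.280. With 1 library left out the calls of Phlda3, Ccng1 and Sesn1 ended at adjusted p up to 0.114 (without no RT replicate 3), 0.106 and 0.182 (both without no RT replicate 2). When no RT replicate 1 was left out the members called were Cdkn1a, Mdm2, Phlda3 and Ccng1. The p53 gene itself, Trp53, was at 253, 283 and 224 CPM without RT and 229, 245, 214 and 220 CPM after RT (edgeR adjusted p = 0.573).

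Of 18 cell cycle inhibitors and G1 cyclins 1 rose and 1 fell (median log2 fold change -0.06). Cdkn1b, the inhibitor p27 (chromosome 6, 134920401 to 134925513), was at 12.4, 15.3 and 17.3 CPM without RT and 55.9, 47.2, 50.7 and 46.7 CPM after RT. The lowest RT library lay well above the highest no RT library, and the log2 fold change was 1.74 (SE 0.254, edgeR adjusted p = 0.0100). This call held in each of the 14 leave-outs, with adjusted p from 0.00725 to 0.0497. Ccnd2, cyclin D2 of G1 entry, was at 198, 131 and 114 CPM and fell to 82.9, 58.5, 61.0 and 72.4 CPM (log2 fold change -1.11, edgeR adjusted p = 0.0376, and up to 0.117 without RT replicate 3).

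**Figure D2:**
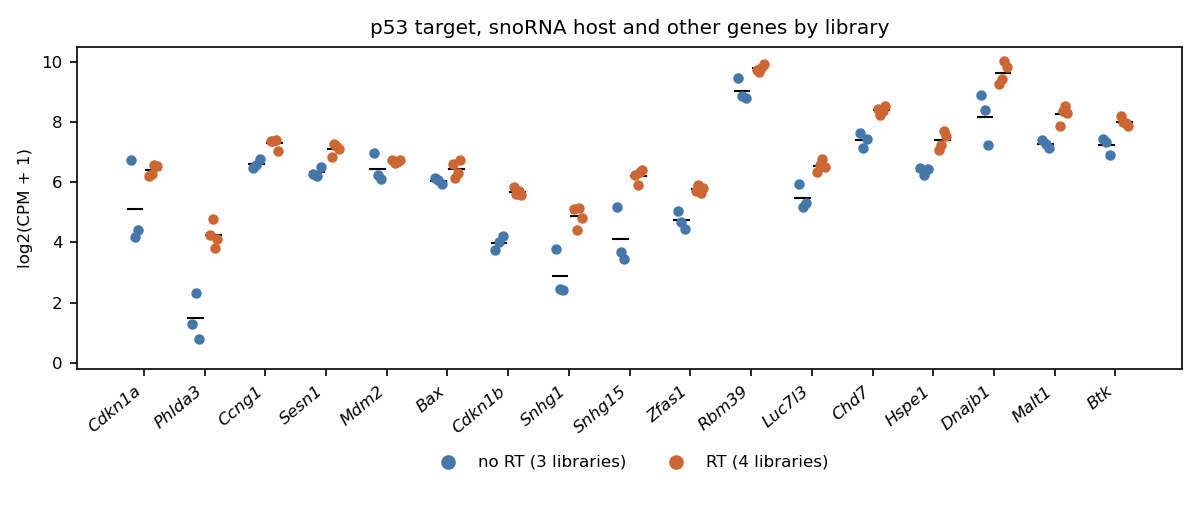
log2(CPM + 1) of p53 target, cell cycle inhibitor, snoRNA host, splicing, chromatin, heat shock and B cell signalling genes in each of the 3 no RT and 4 RT Tert- libraries; short lines are group means. Cdkn1a of 1 no RT library (105 CPM) lies above the RT libraries, while Phlda3 and Cdkn1b do not overlap between treatments.

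Genes of germinal centre B cells were the most often called lower of the lists examined. Of 16 tested, 6 fell (37.5%), none rose and 10 did not pass, against 0.804% of all genes called lower. Of the 16 log2 fold changes 12 were negative and 4 positive, with a median of -1.99. The members named here all had negative values. Nuggc, a germinal centre GTPase, was at 15.7, 1.92 and 5.14 CPM and had no count in any of the 4 RT libraries. Against a floor of 3 counts over the RT group it was at least 88.7-fold lower (edgeR adjusted p = 0.0145). Mef2b, a transcription factor of germinal centre B cells (chromosome 8, 70139711 to 70167488), was at 58.2, 37.6 and 53.01 CPM and fell to 4.72, 2.21, 7.80 and 10.01 CPM, a log2 fold change of -2.98 (SE 0.455, edgeR adjusted p = 0.0120). The calls of Nuggc and Mef2b held in each of the 14 leave-outs. Rgs13, a chemokine signalling regulator of the same cells, was at 21.2, 10.2 and 19.2 CPM and after RT was seen in a single library at 1.82 CPM (log2 fold change -5.20, edgeR adjusted p = 0.0146). Basp1 was at 40.5, 16.5 and 53.7 CPM and fell to 4.53, 6.23, 5.42 and 1.98 CPM (log2 fold change -3.03, edgeR adjusted p = 0.0146). Bcl6, the repressor that sets the germinal centre programme, was at 141, 194 and 186 CPM and fell to 83.1, 85.2, 97.9 and 93.8 CPM (log2 fold change -0.95, edgeR adjusted p = 0.0327). Those last 3 calls ended in some leave-outs, for example Rgs13 and Basp1 at adjusted p of 0.0611 and 0.0822 without no RT replicate 3. S1pr2, which confines B cells to germinal centres, was at 27.4, 18.0 and 23.4 CPM and then 6.53, 8.95, 5.69 and 2.07 CPM, without overlap but with an edgeR adjusted p of 0.233. The summed share of counts of the 16 genes was 0.0753% without RT and 0.0662% after RT (exact permutation test, two-sided, p = 0.343), a smaller fall than the median. Fewer cells of a type and less RNA per cell cannot be told apart in these bulk libraries.

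Of 18 plasma cell genes 2 fell and none rose (median log2 fold change -0.47). Jchain, which joins IgM and IgA chains, was at 77.0, 35.7 and 20.4 CPM without RT and 0, 1.43, 0 and 0.949 CPM after RT (log2 fold change -6.07, edgeR adjusted p = 0.0428). The switched heavy chain Ighg1 was at 34.3, 27.4 and 21.7 CPM and fell to 0, 3.24, 0 and 1.29 CPM (log2 fold change -4.54, edgeR adjusted p = 0.0404). Both calls ended in leave-outs, at adjusted p up to 0.125 without RT replicate 3 and 0.118 without no RT replicate 3. The transcription factors Irf4 and Prdm1 and the surface gene Sdc1 did not pass (edgeR adjusted p = 0.287, 0.910 and 0.613). Immunoglobulin genes are near-copies of one another, so counts of single members are uncertain.

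Of 20 genes that mark mature B cells in general 1 rose, none fell, and the median log2 fold change was -0.09; their summed share of counts was 2.65 ± 0.525% (SD, n = 3) without RT and 2.40 ± 0.0857% (SD, n = 4) after RT (exact permutation test, two-sided, p = 0.343). Ebf1, the B cell lineage factor, was at 458, 383 and 347 CPM and rose to 645, 528, 624 and 565 CPM (log2 fold change 0.58, edgeR adjusted p = 0.0425, and up to 0.200 without no RT replicate 3). With no RT replicate 1 left out the list had 6 calls (30%, against 5.40% of all genes tested), 2 higher (Ebf1 and Ralgps2) and 4 lower (Cd79a, Fcmr, Ighm and Spib). Of 19 genes of B cell receptor signalling 4 rose and 2 fell (31.6% called, median log2 fold change 0.12, and -0.01 without no RT replicate 1). Btk, the kinase downstream of the receptor, was at 173, 160 and 119 CPM and rose to 290, 254, 250 and 230 CPM (log2 fold change 0.76, edgeR adjusted p = 0.0299). Malt1, the protease that links the receptor to NF-kB, was at 167, 153 and 138 CPM and rose to 232, 328, 365 and 312 CPM (log2 fold change 1.01, edgeR adjusted p = 0.0146). Vav2, a guanine nucleotide exchange factor, and the kinase Syk also rose, while Cd81, a tetraspanin of the B cell coreceptor complex, and Vav1 fell; Cd81 was at 387, 711 and 660 CPM and then 337, 359, 312 and 269 CPM (log2 fold change -0.88, edgeR adjusted p = 0.0330). Without no RT replicate 2 or 3 the adjusted p of Btk, Malt1, Vav2 and Cd81 reached up to 0.132, 0.0886, 0.130 and 0.152.

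Of 19 MCM helicase and origin genes 2 fell and none rose (median log2 fold change -0.40). Mcm5, a subunit of the replicative helicase, was at 122, 107 and 123 CPM without RT and 37.5, 70.2, 48.7 and 58.8 CPM after RT, a log2 fold change of -1.12 (SE 0.192, edgeR adjusted p = 0.0146). Mcm6, another subunit of that ring, was at 153, 111 and 109 CPM and fell to 56.4, 30.1, 43.1 and 62.2 CPM, a log2 fold change of -1.37 (SE 0.261, edgeR adjusted p = 0.0242). The groups did not overlap for either gene. The calls ended at adjusted p up to 0.0822 (without no RT replicate 3) and 0.0826 (without RT replicate 3). The other ring subunits Mcm2, Mcm3, Mcm4 and Mcm7 had log2 fold changes of -0.60, -0.42, -0.37 and -0.33 and did not pass. Of 30 S phase genes 1 fell, Rpa1, the large subunit of the single-strand binding protein, from 227, 338 and 261 CPM to 157, 113, 138 and 151 CPM (log2 fold change -0.98, edgeR adjusted p = 0.0146, up to 0.0910 without no RT replicate 2). In that list 26 of 30 log2 fold changes were negative (median -0.59), among them the ribonucleotide reductase subunits Rrm1 (-0.90, adjusted p = 0.0520) and Rrm2 (-1.77, adjusted p = 0.0599).

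Mitosis genes had the lower levels after RT in 31 of 33 cases and a median log2 fold change of -1.61, yet none passed. Mki67, the proliferation antigen, was at 32.0, 5.42 and 1.05 CPM without RT and 0.181, 0.130, 0 and 0.604 CPM after RT (edgeR adjusted p = 0.0551). The spindle motor Kif11 was at 19.1, 1.92 and 0.735 CPM without RT and had no count after RT (edgeR adjusted p = 0.0955). Tert- no RT replicate 1 was the highest library for both genes, and the list median was -0.97 when it was left out. Cenpa, the centromeric histone, was at 106, 40.03 and 72.7 CPM and then 122, 138, 153 and 140 CPM, and among the leave-outs passed only without that library (edgeR adjusted p = 0.0745 with it and 0.00996 without). Cenpa and Smc4 were the 2 most abundant members, with log2 fold changes of 0.92 and 0.14 (edgeR adjusted p = 0.700 for Smc4). Mki67 and Kif11 are less abundant and were named with their values known. A further 2 cell cycle genes outside these lists, chosen after their values were seen, had no count after RT. Pclaf, a clamp-associated replication factor, was at 26.1, 6.03 and 7.56 CPM without RT, at least 155-fold above the floor (edgeR adjusted p = 0.00375), and held in each of the 14 leave-outs. Kif2c, a microtubule depolymerase of the centromere, was at 1.99, 1.66 and 6.30 CPM, at least 33.1-fold above the floor (edgeR adjusted p = 0.0327).

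The promoters of 3 of the fallen genes, chosen after their values and windows were seen, are shown because E2F factors switch on replication genes. Each sequence runs from 250 bases before to 50 after the RefSeq start (GRCm38.p6), 5′ to 3′ on the gene's strand, and capitals mark matches to the E2F motifs TTCCCGC and TTGGCGC on either strand.
Mcm5 (chr8:75109259-75109558, plus strand): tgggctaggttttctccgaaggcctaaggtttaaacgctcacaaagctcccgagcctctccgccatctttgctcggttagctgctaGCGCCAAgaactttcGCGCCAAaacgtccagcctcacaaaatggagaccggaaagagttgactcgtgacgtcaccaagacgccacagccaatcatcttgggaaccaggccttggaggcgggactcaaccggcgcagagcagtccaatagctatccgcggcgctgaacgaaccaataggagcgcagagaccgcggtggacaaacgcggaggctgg
Mcm6 (chr1:128359656-128359955, minus strand): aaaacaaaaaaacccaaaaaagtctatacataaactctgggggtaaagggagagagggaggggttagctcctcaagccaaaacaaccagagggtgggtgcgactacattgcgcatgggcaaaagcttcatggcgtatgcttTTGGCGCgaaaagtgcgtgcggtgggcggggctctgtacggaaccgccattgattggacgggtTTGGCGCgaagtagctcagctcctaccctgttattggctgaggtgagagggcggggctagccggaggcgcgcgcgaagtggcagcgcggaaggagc
Pclaf (chr9:65890073-65890372, plus strand): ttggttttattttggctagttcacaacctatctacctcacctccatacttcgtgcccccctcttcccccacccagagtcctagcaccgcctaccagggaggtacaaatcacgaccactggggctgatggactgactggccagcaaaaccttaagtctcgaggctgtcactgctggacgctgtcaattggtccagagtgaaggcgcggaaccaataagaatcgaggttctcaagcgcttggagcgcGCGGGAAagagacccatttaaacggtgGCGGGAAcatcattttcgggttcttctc
Mcm5 held 2 matches to TTGGCGC with first bases at -164 and -149 from the start, and Mcm6 held 2, at -109 and -46. Pclaf held 2 matches to TTCCCGC, at -5 and 23. Of the 14 MCM and origin genes with a window, TTGGCGC was found in 5 (35.7%) and TTCCCGC in 6 (42.9%), against 4.77% and 9.59% of the 10619 tested genes with a window. Of 27 mitosis genes with a window, TTTGAA, the core of the CHR element of mitotic promoters, was found in 21 (77.8%) against 14.8% of tested genes, and CCAAT in 23 (85.2%) against 42.5%, on either strand. The windows of Rpa1, of Kif2c and of Zwint, a kinetochore gene that also fell (edgeR adjusted p = 0.0282), held 0 matches to either E2F motif. None of these motifs overlaps another in the printed windows, and a match is a run of letters, not a measured binding site. The motif shares count list members whether or not they were called. In these lists 17 of 19 MCM and origin genes and 33 of 33 mitosis genes did not pass. Whether matches go with the response to RT was not tested.

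**Figure D3:**
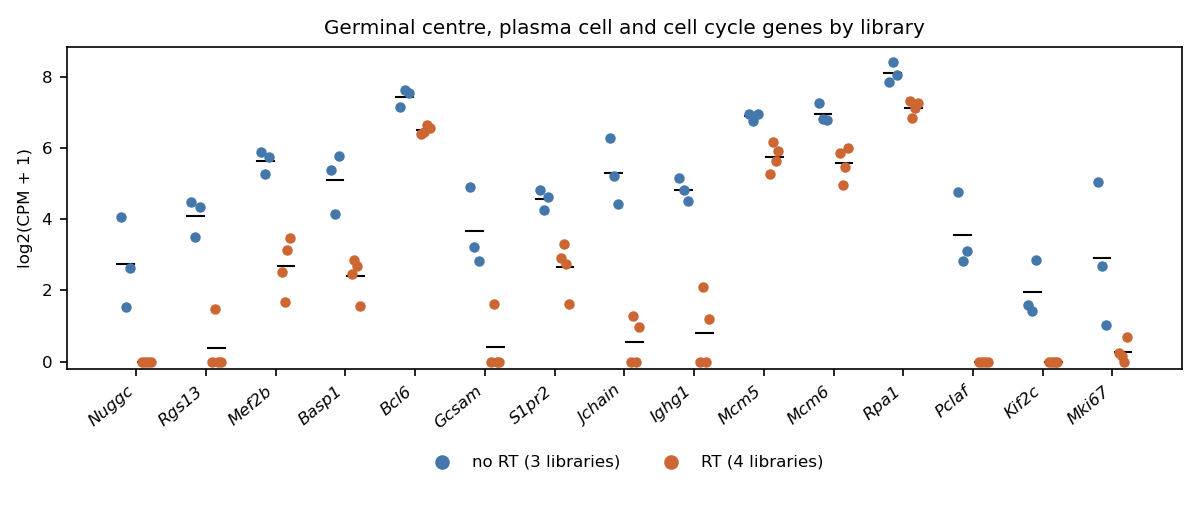
log2(CPM + 1) of germinal centre, plasma cell and cell cycle genes in each of the 3 no RT and 4 RT Tert- libraries; short lines are group means. Nuggc, Pclaf and Kif2c lie at 0 in all 4 RT libraries, and Mcm5, Mcm6 and Rpa1 do not overlap between treatments.

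Most genes of other leukocytes had negative log2 fold changes, and few passed the test. All 20 T cell genes had negative log2 fold changes (median -1.83) and none passed; their summed share was 0.0812 ± 0.0463% of counts without RT (SD, n = 3) and 0.0378 ± 0.0104% after RT (SD, n = 4), without overlap (exact permutation test, two-sided, p = 0.0286). When no RT replicate 1 was left out the median was -0.49 and Cd2, a lymphocyte adhesion gene, was the 1 call. Of 24 macrophage genes 1 fell and 23 had negative values (median -1.15), with a summed share of 0.580% against 0.301% (exact permutation test, two-sided, p = 0.0571). Ctsb, the lysosomal protease cathepsin B, was at 784, 638 and 624 CPM and fell to 480, 379, 358 and 303 CPM (log2 fold change -0.84, edgeR adjusted p = 0.0360, up to 0.113 without no RT replicate 3). The complement gene C1qa was at 445, 299 and 435 CPM and then 275, 168, 162 and 62.5 CPM, without overlap but with an edgeR adjusted p of 0.452. Of 11 monocyte and neutrophil genes 1 fell (median -2.84), Ly6c2, a surface antigen of inflammatory monocytes, from 61.4, 23.1 and 17.2 CPM to 8.70, 9.86, 7.67 and 4.05 CPM (log2 fold change -2.18, edgeR adjusted p = 0.0294, up to 0.0864 without RT replicate 3). With no RT replicate 1 left out that list's median was -0.08. None of 12 dendritic cell genes (median -1.58) and none of 11 NK and cytotoxic genes (median -0.88) passed; Siglech of plasmacytoid dendritic cells was at 120, 82.6 and 57.5 CPM and then 25.8, 21.9, 6.74 and 4.31 CPM (edgeR adjusted p = 0.0808). The summed dendritic cell share went the other way, at 0.262% without RT and 0.353% after RT. Most of that share was the single gene Ccr7, with means of 2467 CPM without RT and 3351 CPM after RT (edgeR adjusted p = 0.440). The share is therefore not read as a level of dendritic cells. Of the 12 members 9 had negative log2 fold changes. No share passed after adjustment over the 22 library measures compared. The part that the number of such cells has in the gene changes above was not tested.

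Of 15 lymphocyte homing genes 1 rose and 1 fell (median log2 fold change -0.22). Itga4, the alpha chain of the integrin that binds VCAM, was at 78.5, 55.4 and 55.5 CPM and rose to 124, 108, 140 and 97.2 CPM (log2 fold change 0.89, edgeR adjusted p = 0.0428, up to 0.184 without no RT replicate 3). Cd44, the hyaluronan receptor, was at 120, 58.6 and 65.0 CPM and fell to 44.8, 32.2, 43.1 and 28.1 CPM (log2 fold change -1.14, edgeR adjusted p = 0.0327, up to 0.0885 without no RT replicate 3). Of 14 MHC class II genes 1 fell (median -0.25), Ctss, which trims the invariant chain, from 1319, 1750 and 1440 CPM to 1064, 922, 883 and 738 CPM (log2 fold change -0.74, edgeR adjusted p = 0.0360, up to 0.161 without no RT replicate 2). None of 15 MHC class I and immunoproteasome genes passed (median 0.05). When no RT replicate 1 was left out, where 5.40% of all genes were called, 3 of these rose and 3 fell.

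Genes that sense and repair DNA damage were not called in either direction, 0 of 39 (median log2 fold change -0.16); Parp1, which marks breaks, was at 471, 585 and 548 CPM and then 427, 407, 405 and 425 CPM, without overlap (edgeR adjusted p = 0.180). With no RT replicate 1 left out, Prkdc and Trp53bp1, both of end joining, were called higher. None of 15 Bcl2 family regulators (median -0.04, and 0.11 without no RT replicate 1) and none of 22 caspase and death receptor genes (median -0.18) passed. Mcl1, a survival factor of that family, was at 340, 224 and 242 CPM without RT and 274, 328, 361 and 263 CPM after RT (edgeR adjusted p = 0.588). The initiator caspase Casp8 was at 93.9, 115 and 104 CPM without RT and 73.3, 95.9, 76.3 and 118 CPM after RT (edgeR adjusted p = 0.616). No telomerase or shelterin gene of 19 was called (median -0.14).

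Transcripts of the mitochondrial genome mostly had positive values and nuclear genes of the same respiratory complexes mostly negative ones. Of 15 mitochondrially encoded genes 2 rose and 14 had positive values (median log2 fold change 1.06), while of 42 nuclear encoded genes 3 fell and 41 had negative values (median -0.35). mt-Co2, cytochrome oxidase subunit 2 (chromosome MT, 7013 to 7696), was at 49.5, 53.1 and 35.4 CPM and rose to 138, 92.2, 179 and 100 CPM, a log2 fold change of 1.47 (SE 0.272, edgeR adjusted p = 0.0227). mt-Co3 of the same complex was at 57.2, 50.9 and 46.7 CPM and rose to 139, 114, 167 and 90.2 CPM (log2 fold change 1.30, edgeR adjusted p = 0.0459). Both have nuclear near-copies, so their counts are uncertain, and their adjusted p reached up to 0.119 and 0.187 without no RT replicate 3. mt-Co1, the catalytic subunit, was at 5217, 3984 and 3189 CPM without RT and 10617, 11201, 8792 and 4570 CPM after RT, where Tert- RT replicate 4 lay among the no RT libraries (edgeR adjusted p = 0.118). The summed share of the mitochondrial genome was 1.12% without RT and 2.28% after RT (exact permutation test, two-sided, p = 0.114). On the nuclear side Uqcrc1 of complex III was at 409, 546 and 668 CPM and fell to 341, 328, 257 and 314 CPM (log2 fold change -0.80, edgeR adjusted p = 0.0354). Sdha of complex II (log2 fold change -0.47) also fell (edgeR adjusted p = 0.0427). The calls of Uqcrc1 and Sdha ended without no RT replicate 3 (adjusted p = 0.174 and 0.178). Without no RT replicate 1 there were 14 calls lower among the nuclear encoded genes (33.3%, against 5.40% of all genes called in either direction).

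Of 19 glycolysis genes 1 fell (median log2 fold change -0.26). Eno1b, a near-copy of the enolase gene Eno1, was at 190, 305 and 341 CPM and fell to 124, 116, 93.2 and 115 CPM (log2 fold change -1.31, edgeR adjusted p = 0.00509, held in each of the 14 leave-outs), and reads of both genes may be split between them. Of 24 glutathione and Nrf2 target genes 2 fell and 22 had negative values (median -0.45). Gsr, glutathione reductase (chromosome 8, 33652523 to 33698163), was at 40.7, 17.6 and 15.9 CPM and fell to 3.26, 2.21, 4.23 and 5.95 CPM, a log2 fold change of -2.64 (SE 0.413, edgeR adjusted p = 0.0144), and held in each of the 14 leave-outs. Slc7a11, the cystine importer that feeds glutathione synthesis, was at 24.4, 4.55 and 0.630 CPM and fell to 0, 0.130, 0 and 0.173 CPM (log2 fold change -6.64, edgeR adjusted p = 0.0319). Most of its no RT counts lay in replicate 1, and the adjusted p was 0.0549 without that library and 0.101 without RT replicate 3.

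Of 23 cholesterol synthesis genes 3 fell, none rose, and 19 had negative values (median log2 fold change -0.52). Sqle, squalene epoxidase (chromosome 15, 59315077 to 59331192), was at 47.9, 64.0 and 74.0 CPM and fell to 18.3, 9.86, 19.8 and 20.1 CPM, a log2 fold change of -1.86 (SE 0.389, edgeR adjusted p = 0.0319). Msmo1, a sterol demethylating oxidase, was at 56.8, 89.2 and 51.9 CPM and fell to 23.9, 20.8, 26.3 and 26.3 CPM (log2 fold change -1.44, edgeR adjusted p = 0.0428). No RT and RT libraries did not overlap for either gene, and their calls ended at adjusted p up to 0.132 without no RT replicate 3 and 0.193 without no RT replicate 2. Cyp51 and Idi1 were also called lower without no RT replicate 1. Srebf2, which drives these genes, was at 170, 109 and 158 CPM without RT and 129, 169, 187 and 175 CPM after RT (edgeR adjusted p = 0.658). None of 14 fatty acid synthesis genes passed (median -0.08); the desaturase Scd1 was at 769, 679 and 677 CPM and then 1143, 1029, 1162 and 983 CPM (edgeR adjusted p = 0.0556).

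Of 19 heat shock chaperones 3 rose and none fell (15.8% called, median log2 fold change 0.42). Hspe1, the mitochondrial co-chaperonin, was at 88.1, 74.0 and 85.0 CPM and rose to 134, 148, 208 and 182 CPM (log2 fold change 1.03, edgeR adjusted p = 0.0106, up to 0.0619 without no RT replicate 2). Hsph1 was at 182, 131 and 161 CPM and rose to 215, 271, 441 and 438 CPM, and Dnajb1, a co-chaperone of Hsp70, was at 470, 334 and 150 CPM and rose to 604, 690, 1038 and 912 CPM (edgeR adjusted p = 0.0405 and 0.0460, up to 0.168 and 0.148 in leave-outs of no RT replicates 2 and 3). The inducible Hsp70 gene Hspa1a spread from 71.0 to 754 CPM without RT and from 944 to 2910 CPM after RT, and did not pass (edgeR adjusted p = 0.106). When no RT replicate 1 was left out, 8 of the 19 rose (42.1%, against 5.40% of all genes called in either direction), Hspa1a and Hspa1b among them. Of 30 unfolded protein response genes 1 rose and 3 fell (median -0.33). Sdf2l1, an endoplasmic reticulum quality control factor, was at 77.2, 78.3 and 107 CPM and fell to 47.2, 35.9, 26.6 and 30.1 CPM (log2 fold change -1.33, edgeR adjusted p = 0.0146). The chaperone Dnajb11 and the disulphide isomerase Pdia6 fell by 0.82 and 0.78 on the log2 scale (edgeR adjusted p = 0.0242 and 0.0327). Eif2ak3, the stress kinase PERK, was at 140, 82.9 and 66.9 CPM and rose to 279, 223, 257 and 237 CPM (log2 fold change 1.36, edgeR adjusted p = 0.0146). Without no RT replicate 2 or 3 the adjusted p of Sdf2l1, Dnajb11, Pdia6 and Eif2ak3 reached up to 0.0886, 0.124, 0.146 and 0.0847.

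Of 11 snoRNA host genes, noncoding transcripts whose introns hold small nucleolar RNAs, 3 rose and all 11 had positive values (median log2 fold change 0.94). Snhg1 was at 12.9, 4.46 and 4.41 CPM and rose to 33.7, 20.1, 34.4 and 27.3 CPM (log2 fold change 1.98, edgeR adjusted p = 0.0327). Snhg15 was at 35.5, 11.7 and 9.97 CPM and rose to 74.9, 59.2, 78.8 and 83.1 CPM (log2 fold change 1.95, edgeR adjusted p = 0.0232), and Zfas1 was at 32.3, 24.8 and 20.6 CPM and rose to 50.8, 59.2, 49.3 and 54.4 CPM (log2 fold change 1.04, edgeR adjusted p = 0.0221). Tert- no RT replicate 1 was the highest no RT library for all 3, and below every RT library. Of 27 splicing and nuclear speckle genes 4 rose and 25 had positive values (median 0.66). Rbm39, a splicing factor, was at 693, 464 and 445 CPM and rose to 836, 809, 891 and 966 CPM (log2 fold change 0.71, edgeR adjusted p = 0.0354). Rbm25, Luc7l3 and Tra2b, which act in splice site choice, had log2 fold changes of 0.75, 1.06 and 0.61 (edgeR adjusted p = 0.0327, 0.0366 and 0.0378). The calls of these 7 genes ended without no RT replicate 2 or 3, at adjusted p from 0.102 (Snhg15) to 0.174 (Tra2b) at the most. Without no RT replicate 1 the 27 splicing genes had 11 calls higher (40.7%, against 5.40% of all genes called in either direction).

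Chromatin remodeller genes rose in 3 of 23 cases, fell in none, and had positive values in 22 (median log2 fold change 0.36). Chd7, a helicase of enhancers (chromosome 4, 8690406 to 8867659), was at 196, 138 and 173 CPM and rose to 341, 299, 326 and 364 CPM, a log2 fold change of 0.98 (SE 0.136, edgeR adjusted p = 0.00742), and held in each of the 14 leave-outs. Chd2 was at 180, 158 and 112 CPM and rose to 246, 247, 244 and 221 CPM, and Chd1 was at 96.5, 52.2 and 71.2 CPM and rose to 127, 130, 119 and 135 CPM (edgeR adjusted p = 0.0354 and 0.0423, up to 0.142 and 0.154 in leave-outs of no RT replicates 3 and 2). Without no RT replicate 1 there were 7 calls higher in this list (30.4%, against 5.40% of all genes called in either direction). All 46 cytosolic ribosomal protein genes had positive values (median 0.44) and none passed; Rps19 was at 1756, 2051 and 1761 CPM and then 3747, 2768, 2664 and 2414 CPM (edgeR adjusted p = 0.0540). Their summed share of counts was 3.16% without RT and 4.47% after RT (exact permutation test, two-sided, p = 0.0571). Of 13 listed histone genes 12 had positive values (median 0.66), H1f0 had a log2 fold change of -0.003, and none passed. The members of both families have near-identical copies.

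Protein-coding genes made up 75.4% of the higher calls, 96.1% of the lower calls and 79.7% of all genes tested, and noncoding RNA genes 12.3%, 1.56% and 8.21%. Predicted or unnamed genes were 31 of the 130 higher calls (23.85%) and 4 of the 128 lower calls (3.125%), against 20.46% of all genes tested. The coding genes called higher had a median span of 37.3 kb, against 21.7 kb for those called lower and 23.7 kb for all tested. The share of counts in lncRNA and antisense genes was 0.754 ± 0.0773% without RT (SD, n = 3) and 1.12 ± 0.0877% after RT (SD, n = 4), without overlap (exact permutation test, two-sided, p = 0.0286). The library protocol is not stated to keep strand, so reads of overlapping and antisense genes cannot be told apart.

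No type I interferon response gene of 34 passed, though 27 had positive values (median log2 fold change 0.55). The most abundant members, Ifi27l2a and Irf9, had log2 fold changes of 0.85 and 0.58 (edgeR adjusted p = 0.0556 and 0.109). Oas2, an RNA sensor of this response named with its values known, was at 6.26, 2.53 and 1.68 CPM without RT and 30.5, 28.9, 34.4 and 16.3 CPM after RT, without overlap (log2 fold change 2.96, edgeR adjusted p = 0.0736). With no RT replicate 1 left out, Oas2 and Zbp1 were called higher and Tmem173, which encodes STING, lower. Of 29 NF-kB target genes 1 rose (median -0.29), Tgfb1, the growth factor TGF-beta, from 69.4, 41.7 and 49.4 CPM to 93.4, 124, 126 and 106 CPM (log2 fold change 1.07, edgeR adjusted p = 0.0319, up to 0.136 without no RT replicate 2). Leaving out no RT replicate 1 turned the median of that list to 0.29, with 4 members higher (Nfkbid, Rel, Tgfb1 and Tnfaip3) and 1 lower (Ltb). None of 27 immediate early genes (median 0.23) and none of 14 Notch pathway genes (median 0.23) passed, though without no RT replicate 1 the immediate early genes Fosl2, Jun and Nr4a3 were called higher and Jund lower.

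The salivary genes themselves were not called. None of 15 epithelial markers (median log2 fold change 0.24), 10 basal and myoepithelial markers (-0.28), 17 acinar secretory genes (-0.90) or 19 granular duct genes (-1.20, 18 negative) passed, and the same held for 7 endothelial (-0.24), 8 fibroblast (-2.17) and 5 erythroid markers (0.37). Several of these medians rested on no RT replicate 1, and without it were -0.07 for epithelial, 0.78 for basal, 1.94 for endothelial, 0.54 for fibroblast and 6.96 for erythroid markers, still with no call. Krt18 was at 73.5, 95.3 and 152 CPM without RT and 61.5, 132, 92.8 and 138 CPM after RT (edgeR adjusted p = 0.998). Epcam was at 40.4, 34.8 and 99.8 CPM without RT and 37.5, 87.2, 46.7 and 69.0 CPM after RT. Klk1 was at 3209, 4536 and 13123 CPM without RT and 1227, 8182, 1938 and 1657 CPM after RT, with overlapping groups (log2 fold change -1.10, SE 0.881). The salivary granular duct share was 0.990 ± 0.499% without RT (SD, n = 3) and 0.476 ± 0.502% after RT (SD, n = 4; exact permutation test, two-sided, p = 0.229), so that changes in gland secretory genes smaller than this spread were not detectable here.

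**Figure D4:**
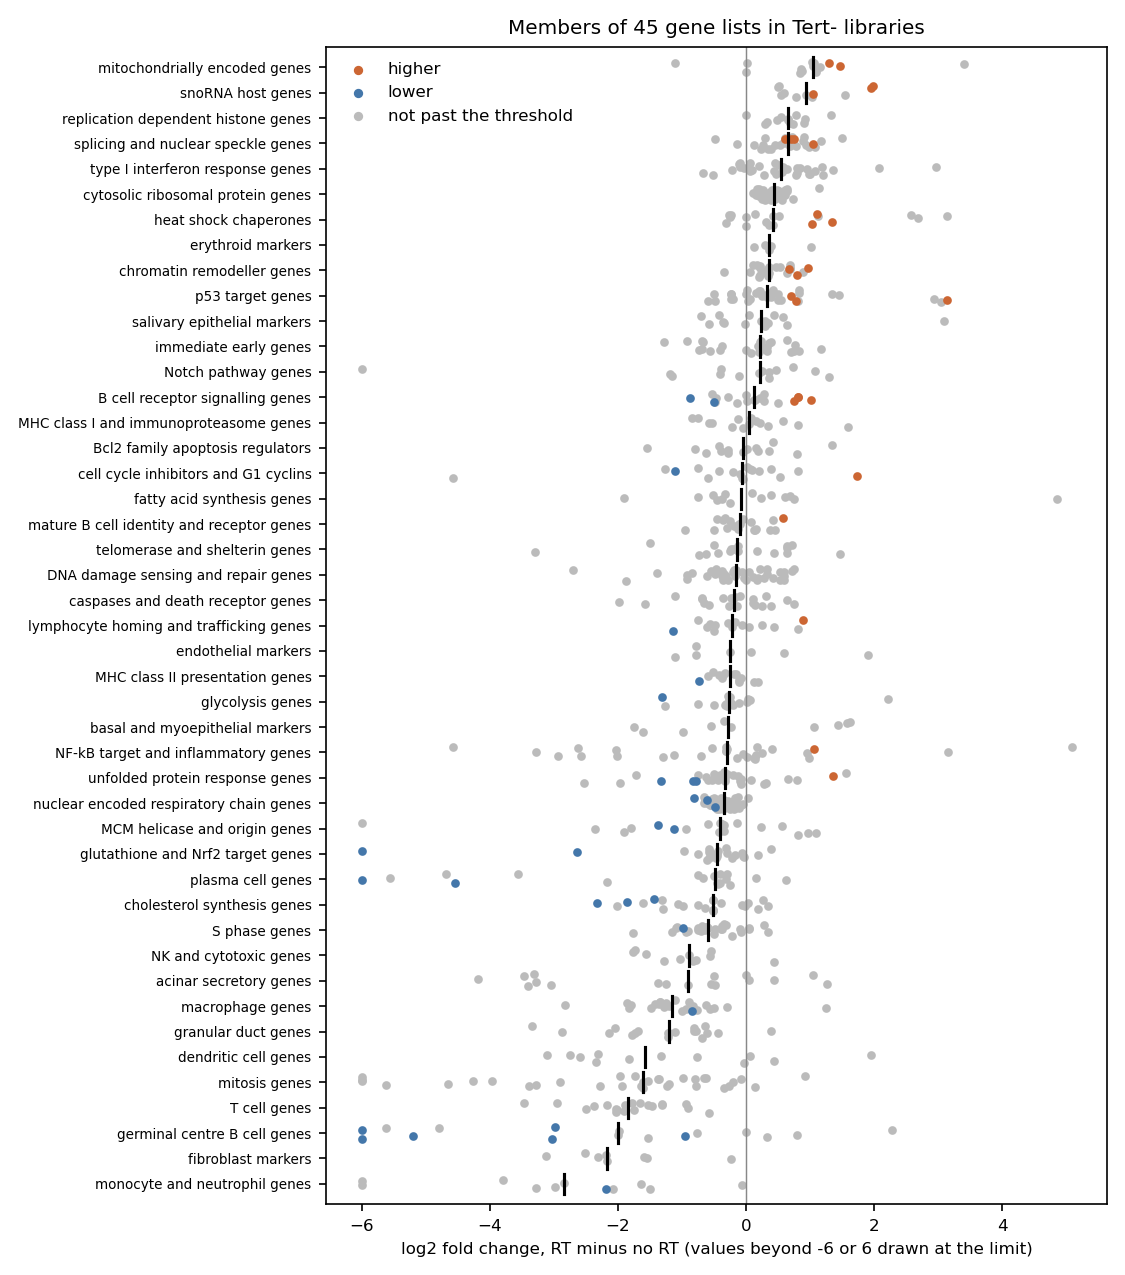
Each point is the log2 fold change (RT minus no RT, Tert- libraries) of 1 tested member of the 45 gene lists, coloured by whether it passed the threshold; black bars are list medians, by which the lists are ordered. Germinal centre genes hold 6 lower calls and splicing genes 4 higher calls, while the T cell and mitosis lists have low medians (-1.83 and -1.61) and no call.

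Outside these lists the named genes with large changes were of mixed function. Predicted genes, which were counted but not described singly, had larger rises, up to a log2 fold change of 2.92 for Gm6297. Mdn1, an AAA ATPase that matures ribosomal subunits, was at 52.6, 30.2 and 26.1 CPM and rose to 115, 88.9, 103 and 106 CPM (edgeR adjusted p = 0.0319). Neu1, the lysosomal sialidase, was at 160, 116 and 80.8 CPM and rose to 246, 274, 342 and 366 CPM (log2 fold change 1.37, edgeR adjusted p = 0.0146). Hist4h4, a histone H4 gene, Prdm10, a zinc finger factor, Dmxl1, and Pde3b, a phosphodiesterase, rose with log2 fold changes of 1.46, 1.41, 1.37 and 1.36 (edgeR adjusted p = 0.0297, 0.0430, 0.0286 and 0.0428). Among the falls, Itgae, the integrin chain of cells lodged in epithelia, was at 35.2, 15.6 and 11.2 CPM and dropped to 3.45, 2.08, 0.793 and 1.38 CPM (log2 fold change -3.45, SE 0.580, edgeR adjusted p = 0.0146, up to 0.0560 without RT replicate 3). Fignl1, which acts in homologous recombination, was at 17.9, 13.5 and 7.66 CPM and fell to 2.18, 0, 1.06 and 2.16 CPM (log2 fold change -3.26, edgeR adjusted p = 0.0485). Clec12a, an inhibitory myeloid lectin, was at 45.4, 50.3 and 23.5 CPM and fell to 10.7, 11.2, 4.89 and 1.55 CPM (log2 fold change -2.51, edgeR adjusted p = 0.0299), and Gas7 fell by 2.69 on the log2 scale (edgeR adjusted p = 0.0427). The light chain segment Igkv3-1 was at 11.4, 134 and 11.8 CPM and then 7.44, 7.01, 8.07 and 6.04 CPM, and its call rested on Tert- no RT replicate 2 (edgeR adjusted p = 0.0449 with it and 0.524 without). The adjusted p of Mdn1 and Neu1 reached 0.143 and 0.0822 without no RT replicate 3, that of Fignl1 and Gas7 0.143 and 0.130 without RT replicate 3, and that of Clec12a 0.107 without no RT replicate 2.

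Tert- and Tert+ cells were then set side by side, each from its own libraries. In Tert+ cells 315 genes were called after RT (1.98%), and 116 genes were called in both populations, 45% of the Tert- calls and 36.8% of the Tert+ calls. Of the 258 genes called in Tert-, 257 had the same sign in Tert+, and the share over all genes tested was not counted. Same-numbered libraries of both populations deviated together from their group means, with correlations of 0.199 to 0.360 without RT and 0.0324 to 0.119 after RT, so the fold changes of the populations are not independent. The difference between the responses, tested as an interaction term in edgeR, was called for 0 of 15915 genes, with 578 at an unadjusted p under 0.05, while DESeq2 called 12. Cdkn1b had a log2 fold change of 1.74 in Tert- and 1.44 in Tert+ (edgeR adjusted p = 0.0159 in Tert+), Mef2b of -2.98 and -3.89 (0.00140), Mcm5 of -1.12 and -1.77 (0.00104), and Chd7 of 0.98 and 0.90 (0.00923). Cdkn1a, not called in Tert-, had a log2 fold change of 2.11 in Tert+ (edgeR adjusted p = 0.0400). Several falls in Tert- had small values in Tert+, such as Itgae (-3.45 and -0.20), Ly6c2 (-2.18 and -0.06), Gsr (-2.64 and -0.79) and Slc7a11 (-6.64 and 0.75). None of these differences passed the interaction test, and neither did the genes with its smallest p-values, among them Ms4a7, a macrophage surface gene (-0.82 and 2.56), and the actin bundler Pls3 (-1.001 and 2.60), so a difference between the populations was not shown for any gene by that test.

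**Figure D5:**
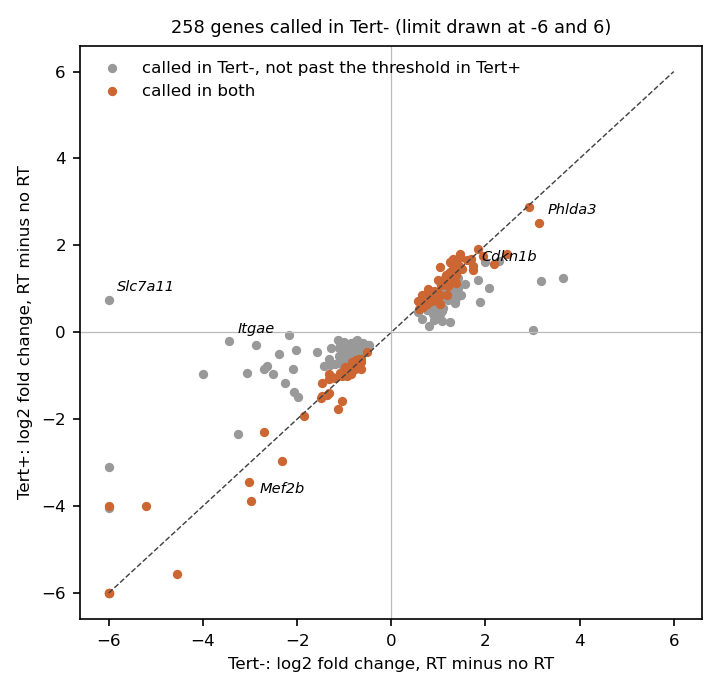
Log2 fold change (RT minus no RT) in Tert- on the horizontal and in Tert+ on the vertical axis for the 258 genes called in Tert-, coloured by whether they were also called in Tert+ (116 genes); the dashed line marks equal changes, and points beyond 6 in either direction are drawn at the edge. Of these genes 257 have the same sign in both populations, with Slc7a11 the exception.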

How the data were processed

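The 14 libraries were made from sorted cells by a PCR-amplified cDNA protocol, per the labels' protocols. The deposited table holds raw counts per gene for 54532 genes with gene names and coordinates; HISAT2 and the build mm10 are named, per the submitters' processing notes, and the counting program and annotation are not given in the sources used here. The deposited counts were tested with edgeR 4.0.16 (R 4.3.3): filterByExpr, TMM scaling, a quasi-likelihood fit with robust dispersion over all 14 libraries and 1 term per group, and Benjamini-Hochberg adjustment over 15915 genes at 0.05. The fit was also run on simulated counts with known changes. Those counts held no stray library, so that run cannot address the dependence on single libraries. CPM are counts per 1e6 on TMM-scaled totals, and fold changes against libraries without counts use a floor of 3 counts over the group, which covers counting error only. Genes were named as Cdkn1a and Tert, the 12 largest rises and 12 largest falls among non-overlapping calls whose average log2 CPM reached 3, up to 4 calls per list (2 abundant members where none passed), and up to 5 genes for the difference between populations; predicted genes were counted. Of 946 entries in 45 lists 3 were not matched and 27 did not pass the filter. Members and lists were chosen with earlier results of these data known. Promoter windows are from RefSeq. Alternatives were other scalings and filters, DESeq2 1.42.0, limma 3.58.1 (voom), the 7 Tert- libraries only, a replicate block and each library left out. Some members counted in the lists are not reported by name here, and others, among them Mki67, Kif11 and Oas2, were named outside the rule above.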

Additional observations from a re-analysis of the deposited data

Results flagged for a closer look

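Of 137 values screened in the 4 Tert- RT libraries, 7 had 1 library far from the other 3, and chance gives about 1 in 20. Tert- RT replicate 2 held the only Rgs13 counts after RT (1.816 CPM) and the highest Klk1 (8182 CPM), and the granular duct genes took 1.228% of its counts. Tert- RT replicate 1 was highest for Hba-a2 (35.36 CPM), and the erythroid markers took 0.02487% of its counts. Tert- RT replicate 4 was lowest for Ccng1 (129.8 CPM) and Chd2 (221.1 CPM), both still above every library without RT.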

How the results depend on the processing

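With DESeq2's test 630 genes were higher, 568 lower and 12 differed between the populations, and with limma voom 206 were higher. With the 7 Tert- libraries alone 42 were higher and 46 lower, 72 of them among the 258 calls, and 25 of the 65 named genes that passed did so. With 1 library left out the counts ran from 7 to 519 higher, 11 to 382 lower, 0 to 1 for the difference, and 8 to 64 for the named genes. Replicate numbers did not pair the treatments (correlations of same-numbered Tert- libraries 0.0328, 0.0905 and -0.118); with a replicate block 132 were higher and 125 lower, 176 shared, and 51 of the 65 named calls held. The named calls that ended under the block include mt-Co3, Uqcrc1, Sdha, Dnajb1, Rbm39, Chd1, Ctss, Ctsb, Ighg1, Igkv3-1, Slc7a11, Hist4h4 and Prdm10. Same-numbered Tert- and Tert+ libraries correlated at 0.0324 to 0.360, and 6 of the 7 Tert- libraries correlated best with their own number, a hint from the data and not the design. Other scalings and filters moved each count by under 1.5 times. No call changed direction under any setting run. In 2051 of the gene and setting pairs, called named genes kept their call, or uncalled ones stayed uncalled within their SE. In a further 27 pairs uncalled genes stayed uncalled, but the log2 fold change moved by more than the SE. Calls were lost in 425 pairs and gained in 26. The share tests of library measures had 0 calls with either denominator. Precision is limited by 3 libraries without RT, 1 of which stands apart, and by low depth after RT for genes under a few CPM.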
